A study of Mus musculus with 6 samples.

Results

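Iron handling was described in myospheres through 10 genes: the ferritin chains Fth1 and Ftl1, the uptake genes Tfrc, Trf and Slc11a2, the exporter Slc40a1, the haem oxygenase Hmox1, the iron regulatory proteins Ireb2 and Aco1, and the siderophore-binding Lcn2. The 10 are named by function, and no signal entered the rule, though the group was drawn up with earlier results of these data known. They are 10 of the genes on the Affymetrix mouse chips MOE430A and MOE430B, on which 18193 genes had at least 1 probe set assigned to a single gene. The myospheres came from hind-leg muscle of male Balb/c mice, whose cells were sorted for the Sca1 antigen and then cultured for 4 days in neurocult, a neural stem cell medium, to which B27, EGF, LIF and a supplement written as bf6f were added. RNA came from 2000000 cells at passage 1. Replicates 1, 2 and 3 were each hybridised to both chips, which gives 6 arrays, 1 condition and no control group. No ages are given, and whether the 3 replicates were grown as separate cultures is not stated in the labels. Every SD, SE and p-value below therefore rests only on spread between arrays, which may be technical.

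Cells take up iron mainly as transferrin bound to the transferrin receptor, reduce it in endosomes and move it into the cytosol through a divalent metal transporter. Ferritin stores what is not used, and ferroportin, the product of Slc40a1, is the known route out of the cell. Iron regulatory proteins bind stem loops in the messages of ferritin, ferroportin and the transferrin receptor, blocking translation of ferritin and ferroportin and stabilising the receptor's message when iron is scarce, so that message levels alone do not give protein levels.

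The data are MAS5 signals on a linear scale. Each array has a background limit, the 95th percentile of probe sets for genes of other tissues such as odorant receptors and keratin-associated proteins, and a distance is the log2 of signal over the limit of the same array. For replicates 1, 2 and 3 the limits were 819, 783 and 821 on MOE430A and 3294, 2952 and 2578 on MOE430B, so signals are read only against their own chip. The array medians were 595, 547 and 610 on MOE430A and 861, 970 and 943 on MOE430B. The limit thus lay further above the median on MOE430B, where a set called below can still exceed the median. A probe set was called above or below its limit when limma's moderated test of the distance against 0 gave an adjusted p under 0.05 over all probe sets of the chip. The SE and p-value of that test are moderated: they combine a probe set's own spread with that of other probe sets of similar signal on the chip. They are therefore not the spread of its 3 values alone. The error of the limit itself is not part of that test. Of the members, 8 had single-gene probe sets, 15 on MOE430A and 2 on MOE430B, while Ftl1 and Trf were read only by 4 probe sets that also match other genes.

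Of the 8 member genes with a single-gene probe set, 7 (87.5%) were above the limit on all 3 arrays of a chip by at least 1 probe set, against 36.1% of all 18193 genes. The same 7 were called above by limma, where 32.9% of all genes were. The share above on all 3 arrays depended on how many probe sets read a gene: it was 22% where 1 set did, 42.2% where 2 did and 59.1% where at least 3 did. The member not above it was Slc40a1. By probe set on MOE430A, 9 of 15 were above on all 3 arrays against 35.1% of that chip, and the median distance was 0.75 against -0.55 for all probe sets. Limma called the same 9 above and 2 below, where it called 32.3% of that chip above and 46.9% below. On MOE430B neither of the 2 member probe sets was above on all 3 arrays, where 9.95% of all sets were, and limma called both below, where it called 8.14% above and 71.7% below. No test of the list was made.

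**Figure D1:**
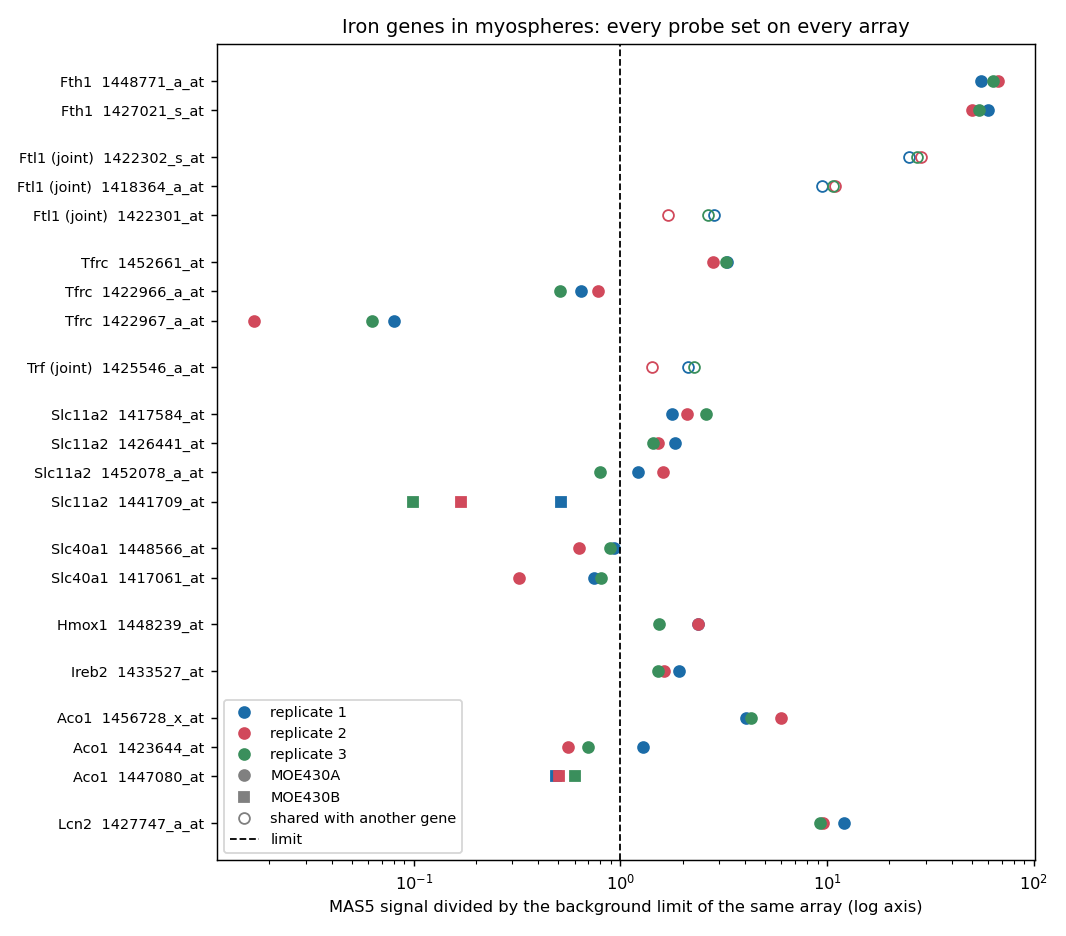
Signal of every member probe set on every array, divided by the background limit of that array (log axis), with 1 point per replicate, circles for MOE430A, squares for MOE430B and open symbols for probe sets that also match another gene. Both Fth1 sets lie over 50-fold above the dashed limit, Lcn2 lies about 10.2-fold above it, both Slc40a1 sets lie under it on every array, and the sets of Tfrc, Slc11a2 and Aco1 lie on both sides.

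Ferritin heavy chain, the subunit with the ferroxidase site that oxidises iron for storage, was far above background. Fth1 gave signals of 45451, 52510 and 51968 in replicates 1, 2 and 3 by probe set 1448771_a_at, and 48999, 39561 and 44622 by 1427021_s_at. The sets lay 5.95 ± 0.14 and 5.78 ± 0.13 (SE, n = 3) above the limit on the log2 scale, or 61.8 and 54.8 times the limit (limma, adjusted p = 2.14e-07 for both). Replicate 2 was the highest of the 3 by the first set and the lowest by the second, so the sets did not order the replicates alike. Both are of shared-sequence types: probes of an _a_at set match several transcripts of 1 gene, and those of an _s_at set may match transcripts of several genes. Whether ferritin pseudogenes add to either signal was not analysed here.

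The light chain, which favours mineral formation inside the ferritin shell, could be read only together with a pseudogene. All 3 probe sets that list Ftl1 also list Ftl1-ps2, and 1422301_at lists 3 microRNA genes too. Their signals were 20440, 22296 and 22393 for 1422302_s_at, 7756, 8524 and 8766 for 1418364_a_at, and 2318, 1326 and 2177 for 1422301_at. All 3 were above the limit on every array, at 4.75 ± 0.10, 3.37 ± 0.09 and 1.22 ± 0.16 (SE, n = 3) on the log2 scale (limma, adjusted p of 2.14e-07, 2.3e-07 and 0.000614). None of these values is assigned to Ftl1 alone, and Ftl1 is not counted among the genes above the limit.

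Fth1 and Lcn2 were the members with a distance over 3 on the log2 scale by a single-gene probe set, and the 250 bases before an annotated start in RefSeq's GRCm38.p6 promoter table are shown for both. That table matched 6 of the 10 members. Windows were searched on both strands for the hypoxia response core (ACGTG), the antioxidant response core (TGACNNNGC), an NF-kappaB-like motif (GGGANNNTC), a C/EBP-like motif (TTGCNNAA), the Sp1 box (GGGCGG) and the TATA box (TATAAA), and capitals mark the matches. The table gives Fth1 a pair of starts, and the window of the downstream one is shown, chr19:9982396-9982645 on the plus strand.
Fth1: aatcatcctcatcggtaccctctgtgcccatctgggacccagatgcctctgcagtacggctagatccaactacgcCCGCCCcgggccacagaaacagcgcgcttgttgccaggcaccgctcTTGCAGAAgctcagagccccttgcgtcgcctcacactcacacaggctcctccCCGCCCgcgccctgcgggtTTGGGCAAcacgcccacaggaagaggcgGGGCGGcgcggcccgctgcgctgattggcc
Lcn2: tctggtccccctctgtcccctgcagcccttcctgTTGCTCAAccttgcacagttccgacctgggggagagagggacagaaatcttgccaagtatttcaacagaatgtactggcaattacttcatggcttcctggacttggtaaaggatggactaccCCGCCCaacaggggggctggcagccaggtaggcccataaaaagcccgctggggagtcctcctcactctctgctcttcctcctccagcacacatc
The Lcn2 window is chr2:32387740-32387989 on the minus strand. The Fth1 window shown held 3 Sp1 boxes and 2 C/EBP-like matches, none overlapping another. The window of the other, upstream Fth1 start is not shown. It held 1 TATA box match, at -124 to -119, and no match to the other motifs. The Lcn2 window held 1 C/EBP-like match, at bases -216 to -209 before the start, and 1 Sp1 box, at -94 to -89. Of 32851 windows of the same length, 32.7% held the Sp1 box and 9.56% the C/EBP-like motif. The hypoxia core was held by 16.6%, the antioxidant core by 10.2%, the NF-kappaB-like motif by 12.2% and the TATA box by 12.4%. A match is a description of letters and not a binding site.

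The transferrin receptor, through which most cells import iron, was above the limit by 1 of its 3 single-gene probe sets. Tfrc set 1452661_at gave 2698, 2206 and 2671 in replicates 1, 2 and 3, which is 1.64 ± 0.10 (SE, n = 3) above the limit on the log2 scale (limma, adjusted p = 1.08e-05). The other sets disagreed with it. Set 1422966_a_at gave 530, 611 and 417 and was called below, at -0.65 ± 0.24 (limma, adjusted p = 0.0421). Set 1422967_a_at gave 65.5, 13.2 and 51.5, at -4.51 ± 0.53 (limma, adjusted p = 0.000327).

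Both chips also carry control probe sets for the transferrin receptor, at the 3' end, the middle and the 5' end of the transcript. All 6 were under the limit on every array. On MOE430A the 3' set gave 325 ± 89.2, the middle set 23.5 ± 10.7 and the 5' set 53.4 ± 39.0 (SD, n = 3). On MOE430B they gave 1597 ± 459, 424 ± 538 and 461 ± 349. Control sets of Gapdh and Actb, transcripts far above the limit, read 13.8 ± 2.45 and 10.4 ± 1.62 times higher at the 3' end than at the 5' end on MOE430A, and 15.4 ± 1.40 and 11.1 ± 2.06 times on MOE430B. Signal thus falls towards the 5' end in these RNAs, though probe sets also differ in affinity. Where on the transcript the 3 single-gene Tfrc sets lie was not analysed here, and the part of this fall in their disagreement was not tested. The same RNAs gave all other signals below, and its part in calls below or set disagreements of other genes was not tested either.

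**Figure D2:**
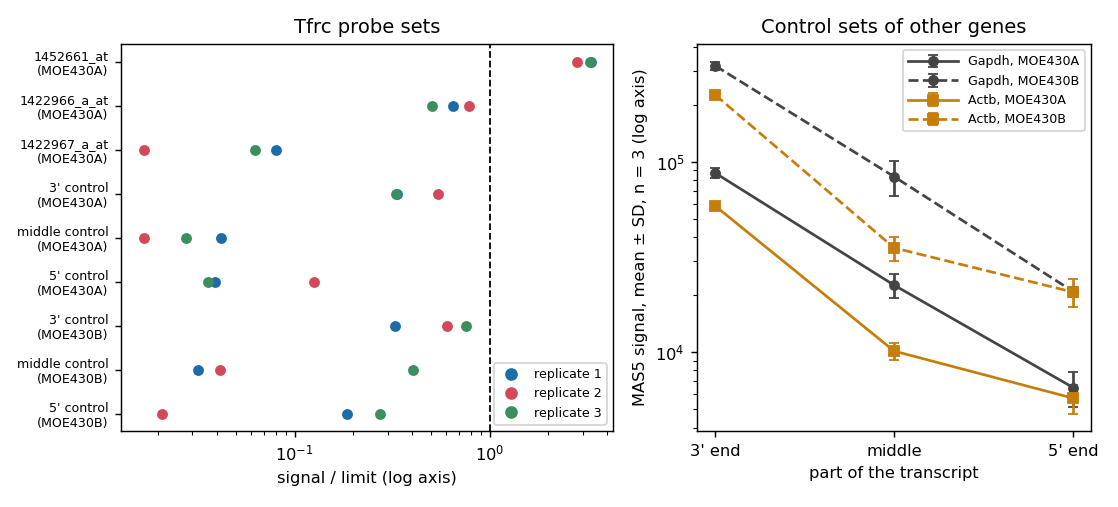
Left, signal over limit (log axis) of the 3 Tfrc probe sets of MOE430A and of the Tfrc control sets of both chips, 1 point per replicate. Only 1452661_at lies right of the dashed limit. Right, control sets of Gapdh and Actb at the 3' end, middle and 5' end (MAS5 signal, log axis, mean ± SD, n = 3), which fall towards the 5' end on both chips.

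Transferrin, the serum carrier that delivers iron to that receptor, had no probe set of its own. The 1 probe set that lists Trf, 1425546_a_at, also lists Srprb, a signal recognition particle receptor subunit. It gave 1729, 1112 and 1872 in replicates 1, 2 and 3, above the limit on all 3 arrays by 0.92 ± 0.16 (SE, n = 3) on the log2 scale (limma, adjusted p = 0.00216). Which of the 2 genes gave this signal cannot be told from it.

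The divalent metal transporter Slc11a2 moves ferrous iron out of endosomes. Its set 1417584_at gave 1462, 1651 and 2140 in replicates 1, 2 and 3, and 1426441_at gave 1511, 1194 and 1182. They lay 1.10 ± 0.14 and 0.67 ± 0.14 (SE, n = 3) above the limit on the log2 scale (limma, adjusted p of 0.000423 and 0.00407). Replicate 1 was the lowest by the first set and the highest by the second. Set 1452078_a_at, at 998, 1257 and 651, exceeded the limit on 2 of 3 arrays and was not separated from it (0.21 ± 0.22, limma, adjusted p = 0.395). On MOE430B set 1441709_at gave 1702, 500 and 256 and was called below, at -2.28 ± 0.59 (limma, adjusted p = 0.00754), with the widest spread of any member set (CV 94.5%). Replicate 1 of that chip came from another chip lot than replicates 2 and 3. Its module number differed from theirs as well, so lot and module cannot be told apart.

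Other genes of iron reduction and uptake were above the limit on all 3 arrays for 9 of 12 measured, against 36.1% of all genes. Limma called 8 of them above, against 32.9% of all genes. Steap3, the endosomal ferrireductase of the transferrin cycle in red cell precursors, gave 2466, 2899 and 1306 (log2 distance 1.38 ± 0.22, SE, n = 3, limma, adjusted p = 0.00157) by its best set, while its other 2 sets were called below. Slc39a14, a carrier of iron that is not bound to transferrin, gave 7647, 4501 and 4761 (2.76 ± 0.15, adjusted p = 5.93e-06). The ferrireductase Cybrd1, known from the gut, gave 741, 563 and 290 and was under the limit on every array, though not separated from it (-0.71 ± 0.31, adjusted p = 0.0749). The further genes called above were Steap1, Steap2, Steap4, Tfr2, Hfe and Mcoln1. Slc39a8 exceeded the limit on all 3 arrays without passing limma, Lrp2 was not separated, and Cubn was called below. Steap4, a metalloreductase named after its value was seen, gave 26451, 22873 and 19768 (4.82 ± 0.12, adjusted p = 2.14e-07) by the better of 2 sets, the other being called below. Slc39a14, Steap2, Tfr2 and Mcoln1 also had 1 set called below.

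Slc40a1 encodes ferroportin. Its probe set 1448566_at gave 762, 494 and 728 in replicates 1, 2 and 3, and 1417061_at gave 612, 254 and 660. All 6 values were under the limits of their arrays, and replicate 2 was the lowest by both sets. The distances were -0.31 ± 0.21 and -0.79 ± 0.32 (SE, n = 3) on the log2 scale, neither separated from the limit (limma, adjusted p of 0.204 and 0.0591). With the 99th percentile as limit the first set was called below, at -0.82 (adjusted p = 0.0109), and with the array median as limit its sign turned, at 0.16 (adjusted p = 0.494). Signals this low cannot be told from background, which does not show that the transcript is missing.

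Among 6 genes of iron oxidation at export and of systemic iron control, 3 were above on all 3 arrays, against 36.1% of all genes. Limma called 2 above, both ferroxidases that load exported iron onto transferrin, against 32.9% of all genes. Ceruloplasmin (Cp) gave 11588, 6735 and 4920 (3.17 ± 0.22, SE, n = 3, limma, adjusted p = 1.79e-05), with replicate 1 the highest, and 6 of its 8 probe sets were above on all 3 arrays, while 1 was called below. Hephaestin (Heph) gave 1551, 1348 and 1604 (0.89 ± 0.12, adjusted p = 0.000545). Hamp, the liver hormone hepcidin that degrades ferroportin, gave 714, 532 and 873 and was not separated from the limit (-0.22 ± 0.21, adjusted p = 0.345). Tmprss6 exceeded the limit on all 3 arrays without passing limma, Hjv was not separated, and Bmp6 was called below.

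Haem oxygenase 1, the inducible enzyme that frees iron from haem, was above the limit on every array. Hmox1 gave 1940, 1869 and 1256 in replicates 1, 2 and 3, a distance of 1.04 ± 0.16 (SE, n = 3) on the log2 scale, or 2.05 times the limit (limma, adjusted p = 0.00117). Replicate 3 was the lowest. Of 10 other genes of haem breakdown and haem transport, 5 were above on all 3 arrays and called above, and 4 were called below. Among all genes 36.1% were above on all 3 arrays and 32.9% were called above. Biliverdin reductase B (Blvrb) gave 58.9, 824 and 273 and was called below (-1.77 ± 0.68, adjusted p = 0.0468), although replicate 2 exceeded its limit. The constitutive haem oxygenase Hmox2 gave 4701, 7034 and 6003 (2.85 ± 0.13, adjusted p = 2.33e-06). The haem exporter Flvcr1 gave 4521, 1389 and 1368 on MOE430B, above the limit in replicate 1 only (-0.52 ± 0.34, adjusted p = 0.181). Blvra, Slc48a1, Hp and Lrp1 were the others called above, and Slc46a1, Hpx and Cd163 the others called below.

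Transcription of Hmox1 and both ferritin chains is known to be held down by BACH1 and driven by NRF2. All 10 measured genes listed for this control, which include NRF2 targets, were above the limit on all 3 arrays and called above by limma. Over all genes the shares were 36.1% and 32.9%, and action of NRF2 or BACH1 on the members was not tested. NRF2 itself (Nfe2l2) gave 10969, 11274 and 15127 (3.93 ± 0.12, SE, n = 3, limma, adjusted p = 3.05e-07). Bach1 gave 5209, 6750 and 8304 (3.04 ± 0.14, adjusted p = 2e-06). Nqo1, a quinone reductase and NRF2 target, gave 2876, 2331 and 3195 (1.78 ± 0.11, adjusted p = 1.06e-05). The rest were Keap1, Mafk, Mafg, Gclm, Gclc, Txnrd1 and Srxn1, with distances from 0.44 for Mafk to 4.37 for Srxn1. Of the 10, Nfe2l2, Keap1, Gclm and Txnrd1 also had 1 set called below.

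Iron regulatory protein 2 (Ireb2) is degraded when iron is plentiful, while Aco1 is the protein that switches between a cytosolic aconitase and iron regulatory protein 1. Ireb2 gave 1566, 1278 and 1252 in replicates 1, 2 and 3, above the limit by 0.75 ± 0.13 (SE, n = 3) on the log2 scale (limma, adjusted p = 0.00208). With the 99th percentile as limit the distance was 0.25 and no longer passed (adjusted p = 0.135). Aco1 gave 3328, 4677 and 3531 by set 1456728_x_at, 2.24 ± 0.13 above the limit (limma, adjusted p = 7.21e-06), with replicate 2 the highest. The _x_at ending marks probes that also match other transcripts. Set 1423644_at gave 1057, 439 and 570, above the limit in replicate 1 only (-0.33 ± 0.27, adjusted p = 0.287). Set 1447080_at on MOE430B gave 1610, 1483 and 1560 and was called below (-0.92 ± 0.34, adjusted p = 0.0303), though it exceeded the array median on every array. The call of Aco1 as above the limit therefore rests on the 1 set of shared sequence.

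Of 6 genes listed for iron chaperoning, ferritin turnover and control of IRP2 stability, 4 were above on all 3 arrays and 3 called above. The same calls took in 36.1% and 32.9% of all genes. Pcbp1, a chaperone that delivers iron to ferritin, gave 16400, 21534 and 16591 (4.48 ± 0.13, SE, n = 3, limma, adjusted p = 2.6e-07). Ncoa4, the receptor that takes ferritin to lysosomes, gave 640, 804 and 662 and was not separated from the limit (-0.21 ± 0.19, adjusted p = 0.338). Fbxl5, the iron-sensing ubiquitin ligase subunit that targets IRP2, gave 10029, 7048 and 11518 on MOE430B (1.67 ± 0.19, adjusted p = 5.49e-05). Pcbp2 was also called above, and the mitochondrial ferritin Ftmt was called below. Epas1, a transcription factor kept in this list without being a chaperone or turnover gene, exceeded the limit on all 3 arrays without passing limma.

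Lipocalin 2 (Lcn2) binds iron-loaded siderophores and is known as an acute phase protein of neutrophils, epithelia and stromal cells. Lcn2 gave 9921, 7453 and 7616 in replicates 1, 2 and 3, or 10.2 times the limit, a distance of 3.35 ± 0.11 (SE, n = 3) on the log2 scale (limma, adjusted p = 4.08e-07). Its single probe set, 1427747_a_at, is of a shared-sequence type. Replicate 1 was the highest and replicates 2 and 3 lay close together. Of 8 measured genes listed with Lcn2, 5 were above on all 3 arrays and called above, where 36.1% and 32.9% of all genes were. Nfkbiz, the IkappaB-zeta cofactor that Lcn2 induction needs in mouse macrophages, gave 4353, 4361 and 4757 (2.47 ± 0.09, adjusted p = 5.74e-07). The transcription factor Cebpd gave 5552, 5018 and 5915 (2.76 ± 0.09, adjusted p = 3.76e-07). Cebpb was also called above, as were Saa3 and Il6, whose values were chosen for naming after they were seen. The acute phase gene Saa3 gave 91461, 106850 and 83773 (6.86 ± 0.19) and the cytokine Il6 gave 4609, 3508 and 6530 (2.55 ± 0.16). Slc22a17, a reported Lcn2 receptor, gave 1456, 725 and 822 and was not separated from the limit, nor was the iron binder Ltf, while Bdh2 was called below.

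Neutrophils and macrophages are rich in Lcn2, Hmox1 and Slc40a1, so their markers were read in the same arrays. Of 7 neutrophil genes 2 were above on all 3 arrays, with best-set distances from -1.82 to 2.95. Over all genes the share above on all 3 arrays was 36.1%, which also stands beside the marker counts that follow. S100a8 gave 5257, 6691 and 6926 and its partner S100a9 gave 80.9, 335 and 438, and Camp was the other above the limit. The single S100a8 set, 1419394_s_at, is of a shared-sequence type. Of 8 macrophage and leukocyte genes 4 were above, with distances from -3.82 for Itgam to 2.48 for Cd14. Adgre1, Lyz2 and Csf1r were the others above the limit. Ptprc gave 519, 881 and 485 and was above the limit on 1 array, and Csf1r gave 2322, 3415 and 3039 by its best set, with 2 of its 3 sets called above and 1 below. By best set, the lowest signal in these 2 lists was 19.8, for Itgam in replicate 1, so no signal was listed as 0. In bulk RNA, fewer cells of a type and less RNA per cell cannot be told apart, and the part of such cells in the Lcn2 and Hmox1 signals was not tested. Of 5 erythroid genes 0 were above on all 3 arrays (limma also called 0 above), Hba-a1 giving 364, 125 and 625 and Klf1 570, 543 and 910. Of 3 Schwann and oligodendrocyte genes 1 was above, Sox10 at 1888, 1296 and 1056 by 1 of its 3 sets with the other 2 called below, while S100b gave 355, 274 and 294.

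The labelled source, Sca1-sorted muscle cells, was read against marker lists too, though the gene of the sort antigen was not analysed here. All 5 connective tissue progenitor genes were above the limit on all 3 arrays, against 36.1% of all genes. Among them were Pdgfra at 12016, 13582 and 12602 and Dcn at 140438, 155335 and 149708, while Col1a2 also had 1 of its 3 sets called below. Of 5 muscle stem cell and myoblast genes 0 were above on all 3 arrays (0 called by limma), with best-set distances from -3.50 to 0.48. Pax7 at 316, 292 and 304, Myf5 at 96.8, 94.2 and 39.5 and Cdh15 were called below. Myod1 at 1074, 605 and 1062 and Myog at 730, 1332 and 1468 exceeded the limit on 2 of 3 arrays and were not separated from it (limma, adjusted p of 0.571 and 0.0822).

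Mitochondrial iron and iron-sulphur cluster genes were above on all 3 arrays for 8 of 9 measured, against 36.1% of all genes. Limma called 7 of them above, against 32.9% of all genes. Slc25a28, a mitochondrial iron importer, gave 820, 1312 and 823, just above its limits in replicates 1 and 3 and further above in replicate 2, and was not separated from them (0.25 ± 0.20, SE, n = 3, limma, adjusted p = 0.274). The cluster scaffold Iscu gave 3170, 3099 and 3474 (2.01 ± 0.09, adjusted p = 2.01e-06). Slc25a37, Nfs1, Glrx5, Isca1, Isca2 and Ciao1 were also called above, Nfs1 with 1 of its 3 sets called below, and Lyrm4 was not separated.

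Among 8 measured genes of haem synthesis, 5 were above the limit on all 3 arrays, against 36.1% of all genes. Limma called the same number above, where it called 32.9% of all genes above, and 3 below. The first enzyme of the pathway outside red cells, Alas1, gave 1092, 1250 and 1898 (0.77 ± 0.17, SE, n = 3, limma, adjusted p = 0.00665). Alad, the second enzyme, gave 1210, 1882 and 1540 (0.91 ± 0.16, adjusted p = 0.0021). Uros, Urod and Fech were also called above. Alas1 and Alad each had 1 further set called below, and Fech had 2 of 4 sets below. Cpox, Ppox and the erythroid enzyme Alas2 were called below, Alas2 at -4.87. Over all 8 groups, 49 of 69 further genes measured (71%) were above the limit on all 3 arrays, against 36.1% of all genes. Limma called 45 above, where it called 32.9% of all genes above, and 11 below by their best set. The share over all genes rose with the number of probe sets per gene, as given for the members. Of the 45, 15 also had at least 1 probe set called below. The median best-set distance was 1.54, beside 1.37 for the 8 member genes and -0.42 for all genes.

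**Figure D3:**
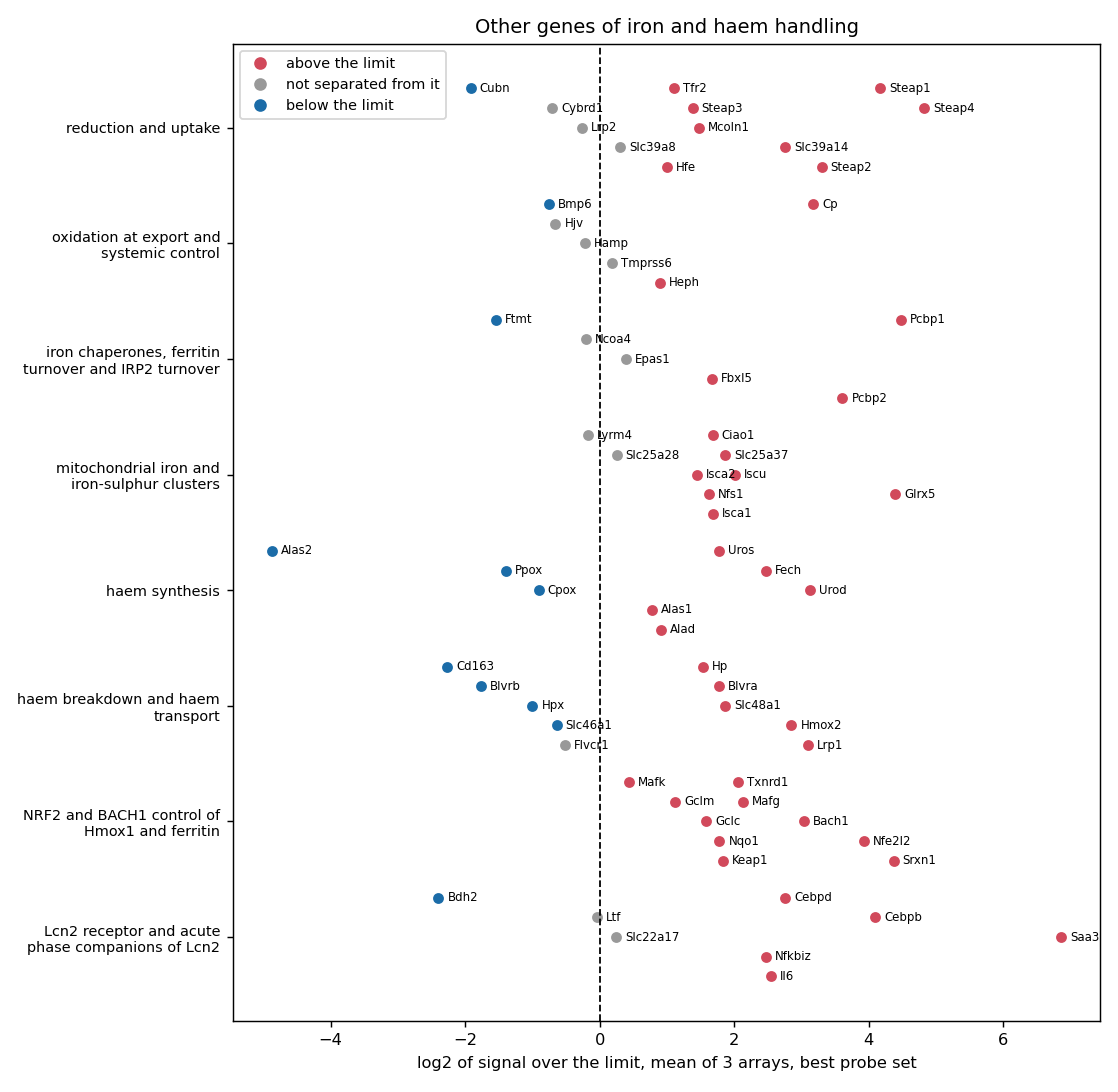
Mean log2 of signal over limit for the best probe set of each of the 69 other genes measured, in 8 groups, coloured by limma's call (adjusted p under 0.05). All 10 genes of NRF2 and BACH1 control lie right of the dashed limit, whereas haem breakdown and haem transport has 5 genes above and 4 below. Limma called 32.9% of all genes above.

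Between replicates, the CV of the 9 member probe sets above the limit on all 3 arrays was 7.86% to 22.3%, with a median of 14.4%, against a median of 13% for the 7940 MOE430A sets above the limit on all 3 arrays. The highest array was at most 1.55 times the lowest, for Hmox1. Replicate 1 was the highest for 6 of the 9, replicate 2 for 2 and replicate 3 for 1, while each replicate was the lowest for 3. With 1 array per chip and replicate, these differences were not tested.

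**Figure D4:**
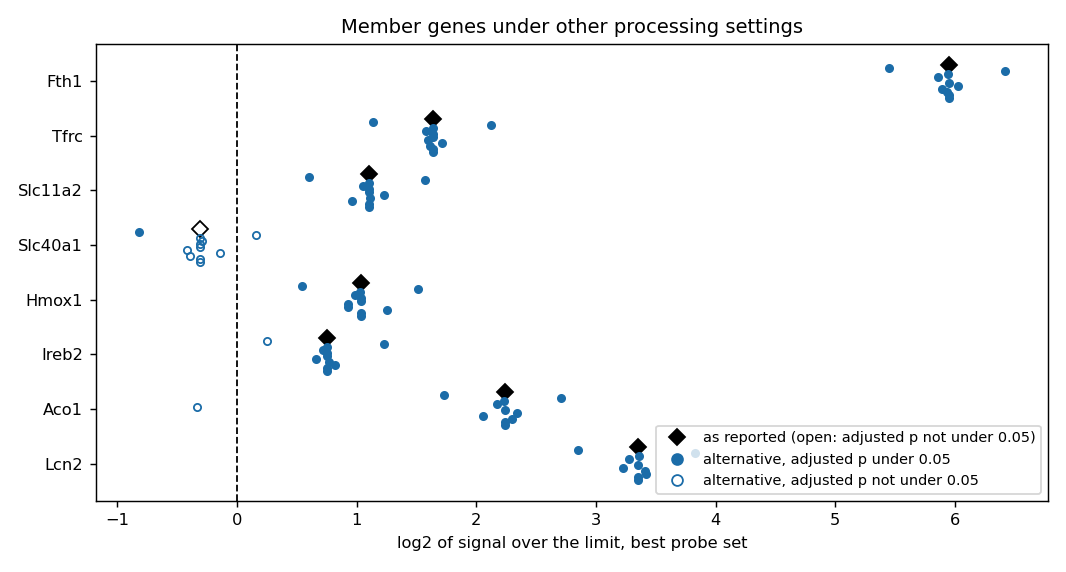
Log2 of signal over limit for the best probe set of each of the 8 member genes as reported (diamonds) and under each alternative setting (circles), filled where limma's adjusted p was under 0.05. Slc40a1 lies between -0.82 and 0.16, Ireb2 reaches 0.25 and loses its call with the 99th percentile limit, and Aco1 falls to -0.33 without probe sets of shared sequence.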

How the data were processed

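Total RNA of 1 condition was measured on 6 Affymetrix arrays, 3 per chip. The authors deposited signal intensity, linear and not log-transformed, made with MAS5 per the submitters' processing notes (the version is not given in the sources used here). Mean intensity after trimming 2% of sets at both ends came to 1500 or 1501 for all arrays, so scaling was to 1 value on each chip separately. Each chip was scanned on 1 day of its own, so chip and day cannot be told apart, and no signal was compared between chips. Replicates 1, 2 and 3 had module numbers 1, 2 and 3 on MOE430A and 3, 4 and 4 on MOE430B. Gene names come from GEO's platform annotation, updated through Entrez numbers in RefSeq's GRCm38.p6 table for 20364 of 20393 single-gene probe sets on MOE430A and 14499 of 14674 on MOE430B.

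The limit used 152 probe sets of other tissues on MOE430A and 42 on MOE430B (families of taste, odorant and vomeronasal receptors, defensins, keratin-associated proteins, testis kinases, protamines and transition proteins, placental prolactins and gamma crystallins). The log2 of signal over limit was tested against 0 with limma 3.58.1 in R 4.3.3 (intensity trend, two-sided, Benjamini-Hochberg over 22626 and 22511 non-control probe sets). On simulated MOE430A data with 22626 probe sets, 96 of 100 sets placed 1 above the limit on the log2 scale were called above. The same held for 100 of 100 placed 2 above, and for 6 of the other 22426, all placed under the limit. No set was placed close to the limit on either side, so errors of calls near it were not measured. Python 3.11.15, numpy 2.4.6, pandas 2.3.3 and matplotlib 3.10.9 did the rest.

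A gene's best set has the largest distance. All member sets are given. Of each further group the first 3 genes in list order have values where measured, and of each marker list the first 2. Of 74 further genes, 5 had no single-gene probe set here and were not analysed. The members and lists were chosen with earlier results of these data known. Having 3 arrays per chip limits the precision.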

Additional observations from a re-analysis of the deposited data

How the results depend on the processing

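Limma called 7 member genes above with replicate 1, 2 or 3 left out, as with all. A count of genes above on every array cannot fall when an array is removed, so it was not read that way. Without probe sets of shared sequence both counts fell to 4 of 6 measured members, since Fth1 and Lcn2 then had no set and Aco1 turned to -0.33. With the 99th percentile limit limma called 6, as Ireb2 fell to 0.25. Slc40a1 turned to 0.16 with the array median limit. Of 86 values of single member genes under the alternatives, 82 kept sign and side of the threshold. Counting probe sets that match several genes, a choice made after seeing the data, gave 9 of 10 members, and MOE430A alone, also chosen then, gave 7. The further genes above on all 3 arrays ranged from 42 to 55 of 69 with the other limits, and were 35 of 57 measured without shared sequence. Limma called 44 or 45 of the 69 above with a replicate left out. Over whole chips, limma called 1045 MOE430B sets above with the 99th percentile limit, and 6044 above and 3961 below with the array median, against 1833 and 16137 as reported. MOE430A sets called above numbered 4375 without shared sequence and 4262 with 1 set per gene, and those called below 3460 with 1 set per gene and 6351 without dim sets, against 7315 and 10609. MOE430B sets called below with 1 set per gene numbered 4376. Leaving out shared-sequence or dim sets, or keeping 1 set per gene, tests fewer sets by construction. With a replicate left out, the sets called above ranged from 6915 to 6997 on MOE430A and from 1579 to 1721 on MOE430B. No paired analysis was possible because each chip was tested by itself against its own limit, with no contrast between groups. Chip lot as a block on MOE430B was not run, as its correlation could not be estimated from 3 arrays. A signal near the limit cannot be told from background here.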
